A study of Mus musculus with 4 samples.

Results

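The genes described here build the brush border, the dense array of microvilli on the apical face of absorptive intestinal cells. The set has 10 genes, chosen by symbol from the 51509 genes of 1 deposited count table: the actin bundlers Vil1, Espn and Pls1, the tip protein gene Eps8, the intermicrovillar protocadherins Cdhr2 and Cdhr5 with their scaffold Ush1c and motor Myo7b, and the membrane linkers Myo1a and Ezr. All 10 were found, and all 10 passed the filter on low counts that left 14684 genes to test.

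RNA sequencing was done on mouse intestinal organoids, epithelial cultures that form crypt-like and villus-like regions. All 4 libraries came from wild-type C57BL/6 mice aged 8 to 12 weeks, and RNA was taken 36 hours after irradiation with 8 Gy. The groups differed in treatment, with 2 libraries given vehicle and 2 given SGC-CBP30, an inhibitor of the bromodomains of the acetyltransferases CBP and p300. One of these 2, SGC-CBP30 replicate 2, is labelled with SGC-CBP31 as its treatment and was placed by its title. No library here was unirradiated, so each value describes irradiated organoids. The dose of the compound, the vehicle and the intestinal segment are not stated in the labels. Nothing in the labels says whether replicates were separate cultures or animals, so p-values here rest on library-to-library spread alone, which may be technical.

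A microvillus is a finger of membrane around a core of parallel actin filaments. Villin, espin and plastin-1 (fimbrin) cross-link the core, and EPS8 sits at its distal tip. Myosin-1a and ezrin tie the core to the surrounding membrane. Neighbouring microvilli are held together at their tips by a heterophilic link between the protocadherins CDHR2 and CDHR5, whose cytoplasmic tails bind harmonin, the product of Ush1c, together with ANKS4B, myosin-7b and its light chain CALML4. Their products build a structure of the differentiated absorptive cell, but these data do not show the genes to be particular to it. In bulk libraries fewer absorptive cells and less RNA per cell cannot be told apart.

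Of the 10 genes 3 fell with SGC-CBP30, the actin bundler gene Pls1, the membrane motor gene Myo1a and the protocadherin gene Cdhr2, and 0 rose. Pls1 was 1.56-fold lower, Myo1a 1.25-fold and Cdhr2 1.21-fold lower. The other 7, among them the defining bundler gene Vil1 and the CDHR2 partner gene Cdhr5, did not pass the threshold, with log2 fold changes between -0.14 and 0.11. A gene was called at a Benjamini-Hochberg adjusted p under 0.05 in edgeR's quasi-likelihood test over all 14684 genes, and 4 of the 10 had an unadjusted p under 0.05. Over all tested genes 30.0% were called, 16.3% lower and 13.6% higher. The share of the 10 genes called, 3 of 10, was thus near the background, and the count is not a result about the set. Their median log2 fold change was -0.022, beside 0.0096 over all tested genes.

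With library totals in place of trimmed-mean (TMM) scaling, 3 genes fell and 3 rose (Vil1, Cdhr5 and Eps8), and the split over all tested genes went from 2397 lower and 2004 higher to 1924 lower and 2907 higher. Without SGC-CBP30 replicate 1 the log2 fold change was -0.22 for Ush1c and 0.14 for Eps8. Without SGC-CBP30 replicate 2 it was 0.14 for both Vil1 and Cdhr5. Such fits take their spread from the vehicle pair alone, so calls gained in them are not firmer evidence.

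**Figure D1:**
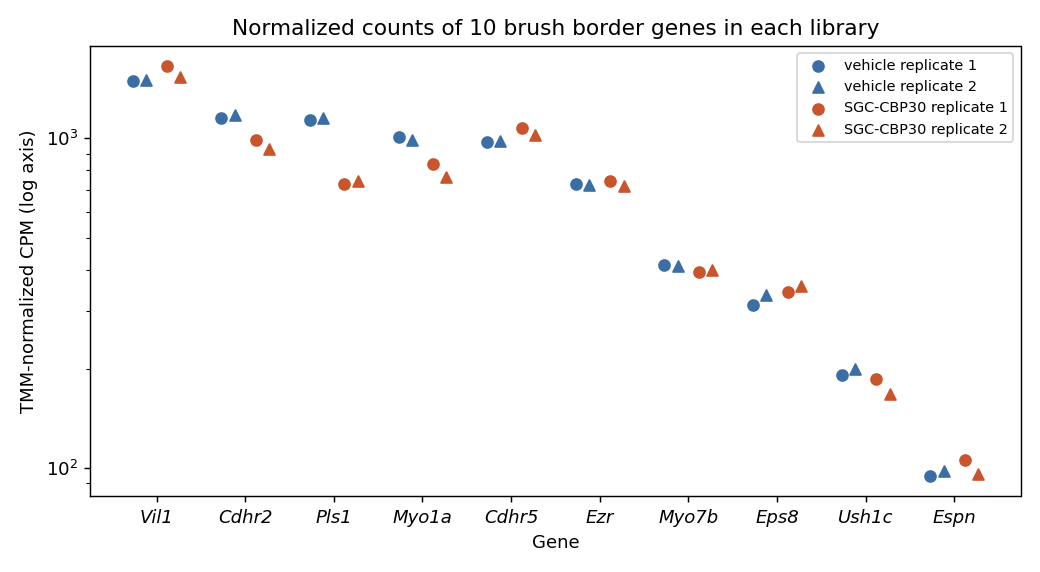
TMM-normalized CPM, counts scaled to library size (log axis), of each of the 10 genes in the 4 libraries, circles for replicate 1 and triangles for replicate 2, blue for vehicle and orange for SGC-CBP30. Both SGC-CBP30 points lie well below both vehicle points for Pls1 (726 and 745 against 1136 and 1151), and below them by less for Myo1a and Cdhr2.

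The stretches just upstream of the start sites of the 3 genes that fell, and of Vil1 as the most abundant gene that did not pass the threshold, are shown so that the letters before genes that moved together can be compared. They come from RefSeq on GRCm38.p6, read 5′ to 3′ on the strand of the gene, and end where the first annotated exon begins. Capitals mark matches to the motifs described after them.
Pls1 (chr9:95845312-95845529, minus strand): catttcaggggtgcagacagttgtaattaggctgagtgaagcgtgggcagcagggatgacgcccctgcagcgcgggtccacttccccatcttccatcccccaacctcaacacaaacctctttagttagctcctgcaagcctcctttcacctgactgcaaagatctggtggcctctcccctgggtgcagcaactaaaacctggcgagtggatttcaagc
Myo1a (chr10:127705006-127705169, plus strand): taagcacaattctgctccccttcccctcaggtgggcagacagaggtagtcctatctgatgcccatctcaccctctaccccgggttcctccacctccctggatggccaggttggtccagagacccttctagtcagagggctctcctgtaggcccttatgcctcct
Cdhr2 (chr13:54701213-54701460, plus strand): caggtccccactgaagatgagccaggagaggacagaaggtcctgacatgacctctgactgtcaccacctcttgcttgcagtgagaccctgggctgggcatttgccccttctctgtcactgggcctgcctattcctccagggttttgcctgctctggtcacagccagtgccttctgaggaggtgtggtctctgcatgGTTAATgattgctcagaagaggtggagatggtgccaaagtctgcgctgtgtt
Vil1 (chr1:74409134-74409375, plus strand): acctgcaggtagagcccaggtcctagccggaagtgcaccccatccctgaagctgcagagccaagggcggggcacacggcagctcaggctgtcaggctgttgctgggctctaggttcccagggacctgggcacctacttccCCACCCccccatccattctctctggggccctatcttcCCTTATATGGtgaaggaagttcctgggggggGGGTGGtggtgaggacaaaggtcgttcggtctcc

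RefSeq windows of 300 bases, from 250 before to 50 after a start site, were matched for 8 of the 10 genes, and Myo7b and Eps8 had none. Matches were searched on both strands for letters linked to factors of the intestinal epithelium, chosen after the expression values were known. GTTAAT, a core motif of HNF1, was found in the window of Cdhr2 alone, at -54 to -49 from its start, and 7.1% of all 32851 windows hold it. The CArG box, the binding motif of serum response factor, was found in the window of Vil1 alone, at -73 to -64 from its start, against 1.63% of all windows. These 8 genes have 10 windows, since Espn has 3. The KLF motif CCACCC was in 6 of the 10 windows, 1 each of Vil1, Espn, Ush1c, Pls1, Myo1a and Ezr, against 31.5% of all windows, and in Pls1 and Myo1a it lies outside the printed stretch. CAAAGTNCA, a form of the HNF4 direct repeat, and the GATA motif AGATAA were in 0 of the 10 windows, against 1.41% and 11.2% of all windows. The CDX motif TTTATNG was in 1 of the 10 windows, 1 of those of Espn, against 10.9% of all windows. The motifs found do not overlap one another in these windows, and the 3 genes that fell share none of them in the printed stretches.

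Among the adhesion genes, Cdhr2 (ENSMUSG00000034918, chromosome 13, 54701461 to 54736662, plus strand) had 1153 and 1175 CPM in the vehicle libraries and 990.1 and 932 CPM in the SGC-CBP30 libraries. Both treated libraries were below both vehicle libraries. It fell by 0.28 ± 0.06 (SE) on the log2 scale, with a 95% confidence interval of -0.39 to -0.16 (edgeR adjusted p = 0.00055). The call held in all 10 alternative settings, and it was closest to the threshold without vehicle replicate 2 (adjusted p = 0.048). Cdhr5 (ENSMUSG00000025497, chromosome 7, 141269083 to 141276786, minus strand), the gene of the other partner in the tip link, had 976 and 979 CPM with vehicle and 1077 and 1022 CPM with SGC-CBP30. Its treated libraries were both above its vehicle libraries, and its log2 fold change of 0.10 ± 0.06 (interval -0.014 to 0.22) did not pass the threshold (edgeR adjusted p = 0.188).

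The level of Cdhr2 relative to Cdhr5 within a library does not depend on how libraries are scaled. In FPKM, which divide counts by gene length and a library total, the ratio of Cdhr2 to Cdhr5 was 0.783 and 0.796 with vehicle and 0.610 and 0.605 with SGC-CBP30. The vehicle pair and the treated pair did not overlap. For a single ratio of 2 libraries against 2 the exact two-sided permutation test gives 0.333 at the least, which is the value found here, so it cannot pass a threshold of 0.05. It was 1 of 5 such ratios compared, and its Benjamini-Hochberg adjusted value over the 5 was 0.417. The ratio sets a gene called lower over one not called, in the same libraries, so it is no separate support for that call.

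Ush1c (ENSMUSG00000030838, chromosome 7, 46195350 to 46238503, minus strand), whose product harmonin ties the protocadherin tails to the motor, had 192 and 199.6 CPM with vehicle and 187 and 168 CPM with SGC-CBP30. SGC-CBP30 replicate 2 was the lowest, and replicate 1 lay close under the vehicle libraries. The log2 fold change was -0.14 ± 0.07 (interval -0.28 to -0.0040), with an unadjusted p of 0.0441 and an edgeR adjusted p of 0.116. Without SGC-CBP30 replicate 1 the log2 fold change of Ush1c was -0.22, and without SGC-CBP30 replicate 2 it was -0.066. A gene of the opposite strand, Gm9860, shares 120 of the 3849 exon bases of Ush1c (3.1%), and since strand use in the counting is not given, reads there cannot be assigned. It had 625 and 441 counts with vehicle and 405 and 476 with SGC-CBP30, and its part in the Ush1c value was not tested.

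Myo7b (ENSMUSG00000024388, chromosome 18, 31959234 to 32036961, minus strand), the gene of the myosin that moves the complex to the tip, had 413 and 411 CPM with vehicle and 395 and 399.9 CPM with SGC-CBP30. The treated libraries were the lower ones by a narrow gap. Its log2 fold change was -0.052 ± 0.057 (interval -0.17 to 0.066, edgeR adjusted p = 0.551), and library totals in place of TMM turned it to 0.021. The FPKM ratio of Ush1c to Myo7b was 0.798 and 0.836 with vehicle and 0.814 and 0.722 with SGC-CBP30, and the groups overlapped (exact permutation p = 0.667, adjusted 0.667). Of the other genes of the complex, the light chain gene Calml4 had 178 CPM in both vehicle libraries and 148 and 132 CPM in the treated ones, and it fell by 0.34 ± 0.07 (edgeR adjusted p = 0.00038). The scaffold gene Anks4b, the remaining gene of the complex, picked with its values known, averaged 178 CPM with vehicle and 166 CPM with SGC-CBP30, and its difference of -0.10 ± 0.07 on the log2 scale did not pass (edgeR adjusted p = 0.277).

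Among the bundlers of the actin core, Pls1 (ENSMUSG00000049493, chromosome 9, 95752642 to 95845311, minus strand) had 1136 and 1151 CPM in the vehicle libraries and 726 and 745 CPM in the SGC-CBP30 libraries. The gap between the groups was many times the gap within either. Pls1 fell by 0.64 ± 0.06 (SE) on the log2 scale, with an interval of -0.75 to -0.52 (edgeR adjusted p = 2.04e-09). Across the 10 alternative settings its log2 fold change ran from -0.66 to -0.56 and was called in each. Vil1 (ENSMUSG00000026175, chromosome 1, 74409376 to 74435559, plus strand), the gene of villin, which bundles and also severs actin, had 1493 and 1503 CPM with vehicle and 1653 and 1541 CPM with SGC-CBP30. Both treated libraries were above the vehicle ones, but the gap between the treated libraries was wider than the gap between the groups. The log2 fold change of Vil1 was 0.093 ± 0.057 (interval -0.025 to 0.21, edgeR adjusted p = 0.241), and 49 of its 3551 exon bases are shared with Usp37 on the opposite strand.

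Espn (ENSMUSG00000028943, chromosome 4, 152120331 to 152152371, minus strand), the gene of the bundler espin, had 94.9 and 98.4 CPM with vehicle and 106 and 96.3 CPM with SGC-CBP30. The groups overlapped. Its log2 fold change was 0.064 ± 0.073 (interval -0.087 to 0.22, edgeR adjusted p = 0.565), and it turned to -0.0073 without SGC-CBP30 replicate 1. Eps8 (ENSMUSG00000015766, chromosome 6, 137477245 to 137654876, minus strand), which encodes an actin-capping and bundling protein of the tip, had 313 and 336 CPM with vehicle and 343 and 358 CPM with SGC-CBP30. The lower treated library stood just above the higher vehicle library. The log2 fold change of Eps8 was 0.11 ± 0.06 (interval -0.016 to 0.23, edgeR adjusted p = 0.191). Per library, the FPKM ratio of Pls1 to Vil1 was 0.695 and 0.699 with vehicle and 0.401 and 0.441 with SGC-CBP30, and that of Pls1 to Espn was 25.5 and 24.9 against 14.6 and 16.4. Pls1 was thus lower relative to the other 2 bundler genes in the treated libraries. The exact permutation p was again at its smallest value of 0.333 (adjusted over the 5 ratios, 0.417). Since Pls1 was called lower and Vil1 and Espn were not called, these ratios restate that result from the same libraries.

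**Figure D2:**
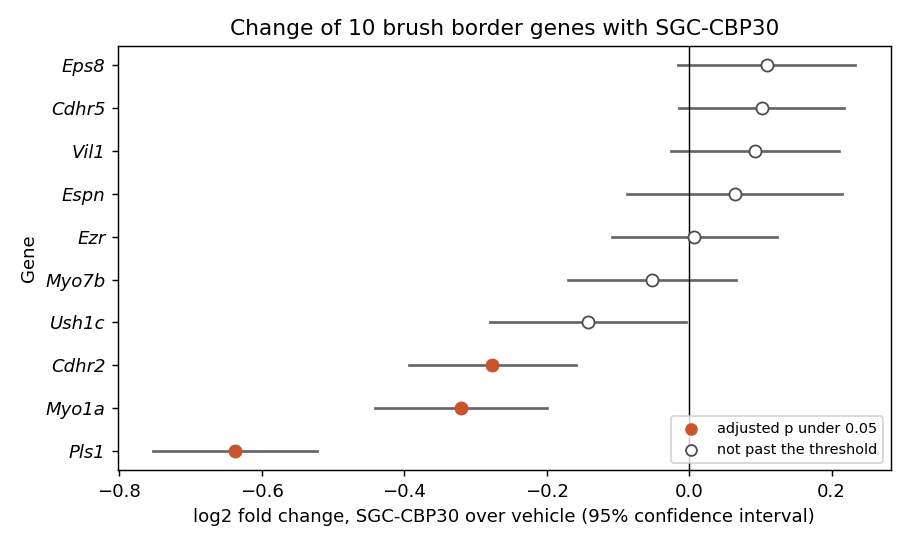
Change of each gene on the log2 scale, SGC-CBP30 against vehicle, with its 95% confidence interval, filled where the edgeR adjusted p was under 0.05. Pls1 stands apart at -0.64, Myo1a (-0.32) and Cdhr2 (-0.28) follow, and the intervals of the other genes include 0 except that of Ush1c, which ends at -0.0040.

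Of the genes that join membrane and core, Myo1a (ENSMUSG00000025401, chromosome 10, 127705170 to 127720940, plus strand), whose product is the main lateral link of the enterocyte microvillus, had 1012 and 989 CPM with vehicle and 837 and 766 CPM with SGC-CBP30. Both treated libraries were below both vehicle libraries, and SGC-CBP30 replicate 2 was the lowest. Myo1a fell by 0.32 ± 0.06 (SE) on the log2 scale, with an interval of -0.44 to -0.20 (edgeR adjusted p = 0.00015), and was called in all 10 alternative settings at -0.39 to -0.25. Ezr (ENSMUSG00000052397, chromosome 17, 6738041 to 6782784, minus strand), the gene of ezrin, had 729 and 724 CPM with vehicle and 744 and 716 CPM with SGC-CBP30. The groups overlapped. The log2 fold change of Ezr was 0.0072 ± 0.0562 (interval -0.11 to 0.12, edgeR adjusted p = 0.945), and its sign was negative with the stricter count filter (-0.0076) and without SGC-CBP30 replicate 1 (-0.024). The FPKM ratio of Myo1a to Ezr was 1.23 and 1.21 with vehicle and 0.996 and 0.947 with SGC-CBP30 (exact permutation p = 0.333, adjusted 0.417). Myo1a thus stood above Ezr per length in the vehicle libraries and close to it in the treated ones. This ratio too sets a gene called lower over one not called, in the same libraries.

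The groups did not overlap in 8 of the 10 genes, against 63.1% of all tested genes, the exceptions being Espn and Ezr. In the authors' deposited table the same 3 genes have an adjusted p under 0.05, with log2 fold changes of -0.64 for Pls1, -0.32 for Myo1a and -0.28 for Cdhr2. These values come from the same libraries, and that of Pls1 equals the DESeq2 alternative (-0.6366 in both), so they are no separate support. Per the authors' deposited table, the remaining 7 lie between -0.14 for Ush1c and 0.11 for Eps8.

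**Figure D3:**
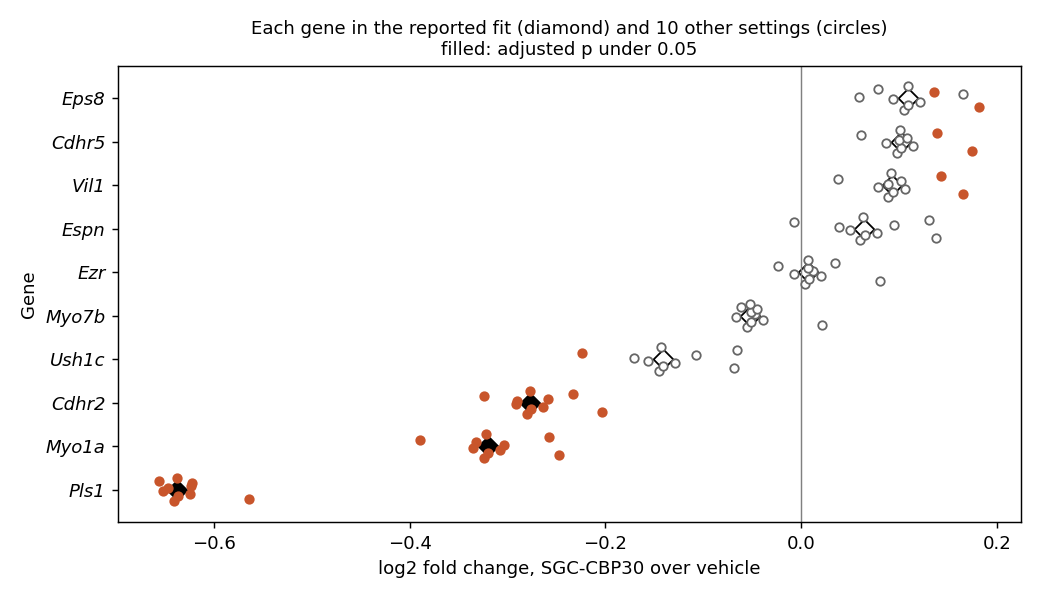
Log2 fold change of each gene in the reported fit (diamond) and in 10 alternative settings (circles), filled where the adjusted p was under 0.05. Alternatives without a treated library take their spread from the vehicle pair alone. Pls1, Myo1a and Cdhr2 are filled throughout, Ush1c is filled once, and Eps8, Cdhr5 and Vil1 are each filled in 2 alternatives.

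Levels between genes were compared in the deposited FPKM. In the vehicle libraries the mean FPKM ran from 420.0 for Vil1 through 356 for Cdhr5, 293 for Pls1, 281 for Cdhr2, 268 for Myo1a and 219.9 for Ezr, and then dropped to 61.9 for Myo7b, 50.6 for Ush1c, 26.2 for Eps8 and 11.6 for Espn. The 2 libraries agreed on this order for all 10 genes, with no overlap between neighbours. In the SGC-CBP30 libraries Vil1 (448) and Cdhr5 (382) again led and the 4 lowest genes kept their places, while Pls1 moved from rank 3 to rank 6 at 188 FPKM. Cdhr2 (232), Ezr (221) and Myo1a (215) stood next to one another there, and Ezr overlapped with each of the other 2 across libraries. The gene length used by the authors covers all annotated exons, which for Eps8 comes to 12355 bases, so that a level per length depends on which transcripts a cell makes.

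As a share of the summed FPKM of the set, Pls1 made up 14.7% and 14.8% in the vehicle libraries and 9.90% and 10.7% in the SGC-CBP30 libraries. Vil1 took 21.1% and 21.2% against 24.7% and 24.2%, and Cdhr5 took 17.9% in both vehicle libraries against 20.9% and 20.8%. The shares of one set sum to a whole, so a lower share of some genes raises that of others. The summed level of the set was 1978 and 1997 FPKM with vehicle and 1879 and 1785 FPKM with SGC-CBP30.

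**Figure D4:**
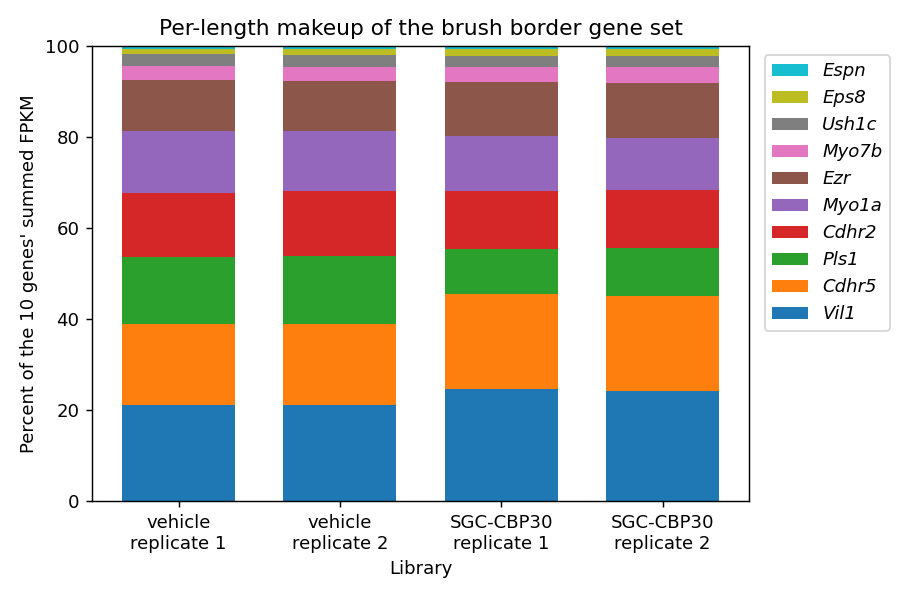
Percent of the 10 genes' summed FPKM taken by each gene, 1 stacked bar per library. The green band of Pls1 narrows from 14.7% and 14.8% in the vehicle bars to 9.90% and 10.7% in the SGC-CBP30 bars.

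Markers of mature absorptive cells moved with the groups, and their part in the values above was not tested. The counts of this and the following lists stand beside 16.3% lower and 13.6% higher over all tested genes. Of 16 markers of mature absorptive cells 12 fell, 1 rose (Apoa4, by 0.43 ± 0.06, SE) and 3 did not pass (Alpi, Fabp1 and Apoa1). Their median log2 fold change was -0.76. Their summed level went from 48166 and 48259.6 CPM with vehicle to 36010.5 and 34636 CPM with SGC-CBP30. Sis, the largest part of that sum, went from a mean of 15093 CPM with vehicle to 7273 CPM with SGC-CBP30. The membrane hydrolase genes Treh and Enpep fell by 1.21 ± 0.06 and 1.06 ± 0.06 (SE) on the log2 scale, further than any of the 10 cytoskeleton and adhesion genes. Of 7 tuft cell markers, a cell type that also bears a tuft of long microvilli, 5 were tested, 1 of which fell, and their sum was 36.0 and 38.1 CPM with vehicle and 28.1 and 29.5 CPM with SGC-CBP30. Fibroblast markers summed to 0.396 and 0.563 CPM with vehicle and 2.47 and 1.08 CPM with SGC-CBP30, and leukocyte markers to at most 2.49 CPM in any library. Endothelial and smooth muscle markers reached at most 1.59 and 0.283 CPM. Goblet markers numbered 2 lower and 1 higher of 7, Paneth markers 3 lower of 6, enteroendocrine markers 1 lower of 7, crypt base stem cell markers 2 lower and 1 higher of 5, and cycling markers 4 lower of 7.

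Of 20 further genes listed for the actin core, which include general actin genes such as Actb, Actg1 and Gsn, 18 were tested. Of these 3 fell, 6 rose and 9 did not pass, with a median log2 fold change of 0.10. Over all tested genes 16.3% fell and 13.6% rose, so the count that fell was near the background. Cobl, which encodes the actin nucleator cordon-bleu of growing microvilli, had 384 and 383 CPM with vehicle and 270.2 and 291 CPM with SGC-CBP30 and fell by 0.45 ± 0.06. The plastins, the family of Pls1, went separate ways: Lcp1, the leukocyte plastin gene, fell from 20.7 ± 0.909 to 10.6 ± 0.154 CPM (SD, n = 2), whereas Pls3, the gene of the widely expressed plastin, rose from 13.5 ± 1.85 to 21.2 ± 0.547 CPM. Both are far below Pls1 itself. The filament-severing gelsolin gene Gsn rose by 0.47 ± 0.07. The cytoplasmic actin genes Actb (0.28 ± 0.06) and Actg1 (0.20 ± 0.06), picked with their values known, also rose, and their counts are uncertain because both have many processed copies in the genome. The number that rose was 10 under library totals and 3 without vehicle replicate 2.

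Among the other membrane linkers and motors 15 of 16 genes were tested, and 4 fell, 4 rose and 7 did not pass (median log2 fold change 0.071), beside 16.3% lower and 13.6% higher over all tested genes. Clic5, whose product binds ezrin at the apical membrane, had 558 and 548 CPM with vehicle and 297 and 321 CPM with SGC-CBP30, and fell by 0.84 ± 0.06 (SE). Pdzk1, the gene of an apical scaffold for transporters, fell from 51.0 and 47.8 CPM to 20.4 and 14.6 CPM, 2.83-fold. The class I myosin gene Myo1c rose from 84.7 and 88.0 CPM to 156 and 153 CPM, in the direction opposite to Myo1a. Myo1e, another class I myosin gene, rose by 0.30 ± 0.07 but was not called once vehicle replicate 1 was left out (adjusted p = 0.134). Leaving out either vehicle library lowered the number that rose to 2.

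In the terminal web, the actomyosin mesh in which microvillar cores are rooted, 2 of 16 genes fell, 8 rose and 6 did not pass, with a median log2 fold change of 0.22. The background was again 16.3% lower and 13.6% higher. Actn1, an actin cross-linker gene, rose from 88.0 and 87.8 CPM to 121 and 129 CPM, and the tropomyosin gene Tpm4 from 115 and 110.1 CPM to 155 and 160.4 CPM. Mylk, the gene of myosin light chain kinase, fell from 132 and 137 CPM to 42.1 and 43.4 CPM, 3.15-fold. Lima1, an actin-binding protein gene, fell by 0.20 ± 0.06 (SE). It was no longer called with library totals (adjusted p = 0.0813), nor when vehicle replicate 1 (adjusted p = 0.119) or vehicle replicate 2 (adjusted p = 0.25) was left out. Without vehicle replicate 1 the web genes that rose numbered 4, and 1 fell without either vehicle library or with library totals.

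**Figure D5:**
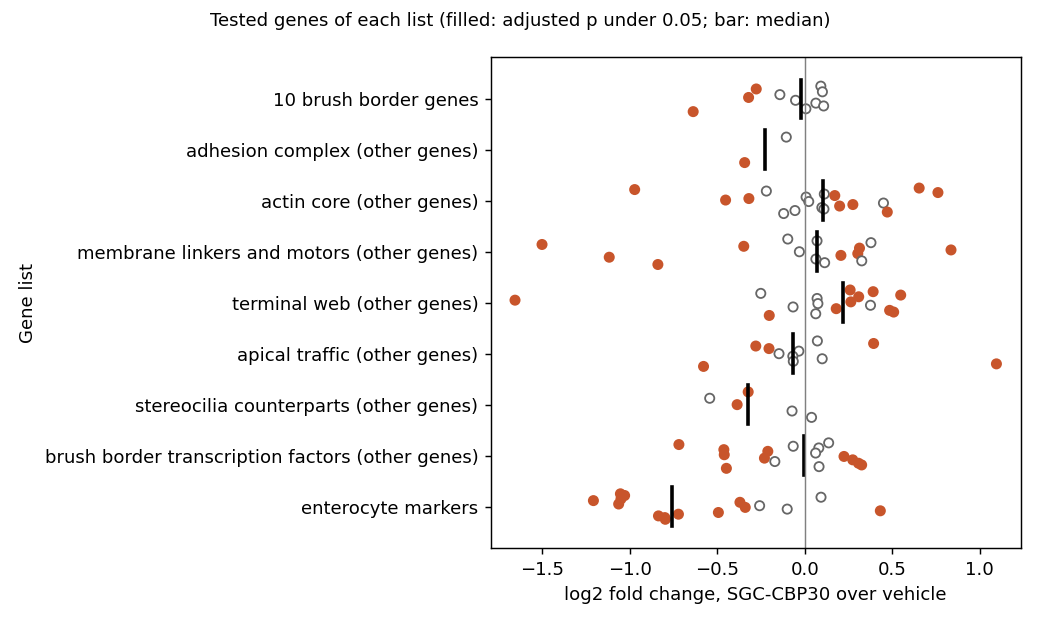
Log2 fold change of each tested gene of the 10-gene set, of the other genes of 7 related lists and of the enterocyte markers, filled where the edgeR adjusted p was under 0.05, with a bar at the list median. The 10 genes centre near 0 (-0.022) with Pls1 at the left, terminal web genes centre at 0.22 with Mylk far to the left, and enterocyte markers centre at -0.76.

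Of 11 genes listed for vesicle delivery to the apical membrane, 1 of them a cargo, 3 fell, 2 rose and 6 did not pass. Their median log2 fold change was -0.065, and the background was 16.3% lower and 13.6% higher. The anion exchanger gene Slc26a6, an apical cargo, fell by 0.58 ± 0.06 (SE) and Rab8a, the gene of an apical sorting GTPase, by 0.28 ± 0.07, while the recycling endosome gene Rab11a rose by 0.39 ± 0.07. Rab8a was not called once vehicle replicate 2 was left out (adjusted p = 0.0728). The count that fell was then 1, and the count that rose was 4 with library totals and 1 without SGC-CBP30 replicate 2. Of 12 relatives or partners from the stereocilia of hair cells, where a tip link of related build occurs, 5 were tested and 2 fell, against 16.3% of all tested genes. Myo7a, the hair cell counterpart of Myo7b, fell from 91.9 and 92.0 CPM to 71.3 and 75.7 CPM, and Whrn, a scaffold gene related to Ush1c, fell by 0.39 ± 0.15, a call lost in 5 alternatives (adjusted p from 0.0666 to 0.417). Pcdh15 and Ush1g, picked with their values known, had 0 counts in all 4 libraries, which allows up to 0.166 to 0.183 CPM at a floor of 3 counts per library.

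Of 16 transcription factor genes known to act on absorptive or actin cytoskeleton genes 6 fell, 4 rose and 6 did not pass, with a median log2 fold change of -0.0012, beside 16.3% lower and 13.6% higher over all tested genes. Hnf4g, the gene of a nuclear receptor of the enterocyte programme, had 526 and 527 CPM with vehicle and 305 and 335 CPM with SGC-CBP30, and fell by 0.72 ± 0.06 (SE). Gata6, the gene of a zinc finger factor of the gut epithelium, fell from 179 and 186 CPM to 137 and 129 CPM. Elf3, an epithelial ETS factor gene, rose by 0.28 ± 0.07, and Mkl1, the gene of an actin-regulated cofactor of serum response factor, by 0.31 ± 0.10. Elf3 was not called once vehicle replicate 1 was left out (adjusted p = 0.242). Mkl1 was not called by DESeq2 (adjusted p = 0.119), nor with vehicle replicate 1 (adjusted p = 0.125), vehicle replicate 2 (adjusted p = 0.0902) or SGC-CBP30 replicate 1 (adjusted p = 0.113) left out. The count that rose was 0 without vehicle replicate 1, 1 in DESeq2 and 2 with the stricter filter, and the count that fell was 4 without vehicle replicate 1 or 2. Over all 7 lists 21 genes fell and 24 rose, and with library totals 17 fell and 33 rose. The whole table shifted the same way, from 2397 lower and 2004 higher to 1924 lower and 2907 higher with library totals. The change in the lists is thus not a result about them.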

How the data were processed

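RNA was sequenced from 4 libraries, 2 per group. HISAT2 2.0.5, StringTie 1.3.3b, featureCounts 1.5.0-p3 and the build mm9 are named, without roles, in the submitters' processing notes; gene coordinates in the table are those of GENCODE M21 on GRCm38 (98.5% of 51477 shared genes identical) and are given so, 1-based. Per the file headers, the authors deposited raw counts per gene, FPKM, group means (a signal on the scale of normalized counts), and their own log2 fold change with a p-value, raw and adjusted, by an unnamed test. The table stops within its last line, past the genes with counts. Handling of strand and multiply mapped reads is not given in the sources used here.

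Counts (16433117 to 18087250 per library) were tested with edgeR 4.0.16 in R 4.3.3: filterByExpr, TMM (factors 0.972 to 1.03), robust quasi-likelihood F test of treatment without covariates, Benjamini-Hochberg adjustment over 14684 genes. SE is the size of the log2 fold change over the square root of F; intervals use the test's degrees of freedom. Means are given ± SD. Levels between genes use the deposited FPKM. Replicates differed beyond counting noise (chi-square per degree of freedom 2.97 for vehicle, 6.22 for SGC-CBP30). Log2 CPM correlated across genes at 0.989 within groups and 0.971 to 0.973 between them. The code was tested on simulated data. Alternatives were DESeq2 1.42.0, its size factors, library totals, 2 other count filters, each library left out, and a replicate block. Floors cover counting error only.

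The members, the 7 related lists and the 11 marker lists were chosen with earlier results of these data known. Genes named from the lists are up to 2 called lower and 2 called higher of smallest p per list, where log2 CPM averaged 3 or more, and the 2 enterocyte markers of smallest p. Any other gene, among them Anks4b, Pcdh15, Ush1g and the antisense neighbours, was picked with its values known. One marker gene is not reported here.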

Additional observations from a re-analysis of the deposited data

How the results depend on the processing

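Of the 10 genes, Pls1, Myo1a and Cdhr2 were called lower in all 10 alternatives. The number of the 10 called was 6 with library totals (3 lower, 3 higher), and ranged from 3 to 5 when 1 library was left out (3 to 4 lower, 0 to 2 higher). With library totals Vil1 (0.17), Cdhr5 (0.17) and Eps8 (0.18) passed the threshold upward and Myo7b turned to 0.021. Leaving out 1 library gave 0.037 to 0.14 for Vil1, 0.060 to 0.14 for Cdhr5, 0.059 to 0.16 for Eps8, -0.22 to -0.066 for Ush1c, -0.0073 to 0.13 for Espn and -0.024 to 0.035 for Ezr, and Ezr was -0.0076 with at least 50 counts in 2 libraries. Library totals leave out the TMM factors, which by construction moves log2 fold changes up together (median of all tested genes 0.083). Over all genes DESeq2 called 2722, 1070 of them higher, and leaving out 1 library gave 2899 to 4557 calls, 1235 to 2104 of them higher. In the 7 related lists the count that rose was 12 to 25 when 1 library was left out. Smaller fits have fewer libraries from which to estimate spread. Where 1 treated library is left, only the vehicle pair sets the spread. That pair differed less than the treated pair (chi-square per degree of freedom 2.97 against 6.22). Calls gained in those fits are therefore not firmer evidence.

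The replicate numbers are shared by the groups but are not stated to mark a shared culture or day, and same-numbered libraries did not deviate together (correlation -0.024 over 14684 genes). With the replicate number as a block 4703 genes were called, and 3 of the 10, with a log2 fold change of -0.64 for Pls1; it changed no call among the 10. With 2 libraries per group, intervals of 0.12 to 0.15 on either side of a log2 fold change limit what could be detected for the genes not called.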
